A study of Polypedilum vanderplanki with 8 samples.

Results

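Narrow, intense peaks at moderate spacing are short stretches of accessible DNA in Pv11 cells that carry a high signal for their length and stand some distance from the next accessible stretch. Members were chosen by width, signal and spacing in the single ATAC-seq peak list of the experiment: a width of 500 bp or less, an area of 5 or more per bp of width, and more than 1000 and up to 10000 bp to the nearest peak, on chromosomes 1, 2 and 3. There were 213 members among 12035 peaks. They were compared with the 1529 peaks of the same width and spacing whose area per bp was below 5, which are called comparators here. The libraries behind the experiment were made from wild-type Pv11 in normal culture, before trehalose (n = 3), and from wild-type Pv11 kept for 48 h in 600 mM trehalose (n = 3). The list carries no library and no condition, so each peak has 1 value without a replicate, normal culture and trehalose cannot be told apart, and the sequencing depth is unknown. The KH-derived clones B2 and 4C were sequenced on a nanopore instrument (1 library each) and were not used here.

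Pv11 is a cell line of the sleeping chironomid, a midge of African rock pools whose larvae survive almost complete drying. The cells inherit this ability if they are first kept in trehalose, a sugar that protects proteins and membranes as water is lost. In ATAC-seq, a transposase inserts adapters wherever DNA is not wrapped tightly around nucleosomes, and a peak marks a place where many insertions were found. In well-studied animals such as Drosophila, short and strong peaks often mark promoters, enhancers and insulators, whereas wide peaks often join several such elements. Which of these the members are was not analysed here, because no genome sequence was used and the list names no build against which gene positions could be read.

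The members covered 76419 bp together, which was 0.795% of all bases inside peaks on chromosomes 1 to 3, and they made up 1.94% of the 10998 peaks there. The values in this paragraph chose the members or come from the same measurement, and are given as a description without a test. Their width ran from 120 to 500 bp with a median of 365 bp, and only 12 members were 200 bp or less, whereas 85 were above 400 bp. The comparators were shorter, with a median of 277 bp. Area per bp ran from 5.04 to 30.6 among members, with a median of 6.74 and quartiles of 5.71 and 8.64. It was below 6 in 73 members, 8 or more in 67 and 10 or more in 32, so that most members lay below 8. The median of the comparators was 1.92 per bp. At the summit, the base with the strongest signal, the members had a -log10 q of 8.34 to 39.4 with a median of 13.8, and the comparators had 2.66 to 15.8 with a median of 5.23. Thus 69 members were above the highest comparator, while 203 comparators were at or above the lowest member. Such values were also common elsewhere, since 2534 of the 10998 peaks of chromosomes 1 to 3 had a -log10 q of at least 15.7855. Area per bp, which chose the members, and summit -log10 q rose together, with a Spearman's rho of 0.82 in members and 0.89 in comparators. Members were intense for their width more than in total. The median member exceeded 84.7% of the peaks of chromosomes 1 to 3 in area per bp, 71.9% in summit -log10 q and 64.7% in area.

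**Figure D1:**
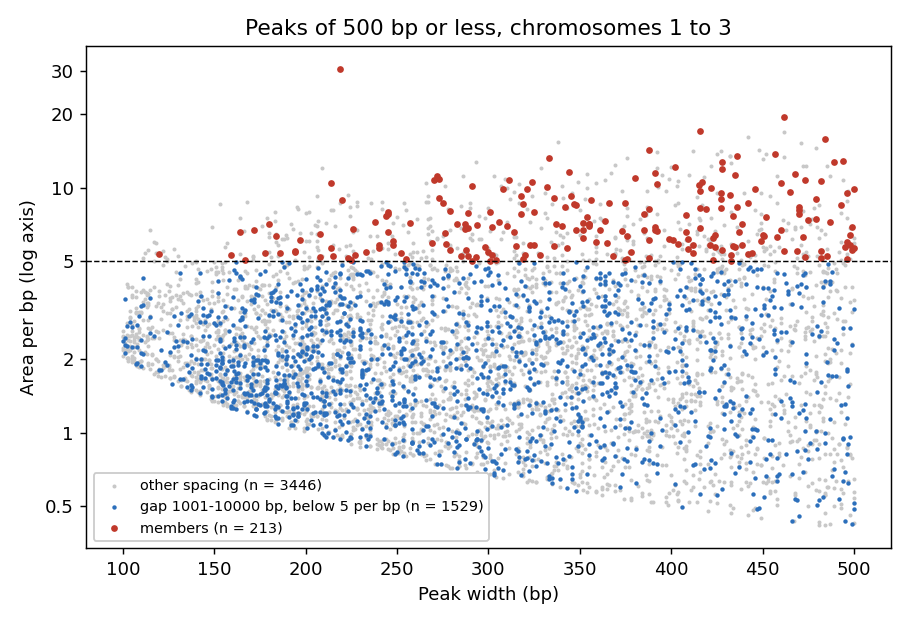
Area per bp (log axis) against width in bp for the 5188 peaks of 500 bp or less on chromosomes 1 to 3, with 1 point per peak. The 213 members (red) lie above the dashed line at 5 per bp, the 1529 comparators (blue) lie below it, and grey points are peaks of other spacing; the member at 30.6 per bp stands apart from the rest.

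Width and area per bp chose the members, so their relation is given as a description only, and nothing is read from it. In width classes that run from just above their lower bound to their upper bound, the share of members was 3.17% at 100 to 200 bp (12 members), 8.81% at 200 to 300 bp (48 members), 15.0% at 300 to 400 bp (68 members) and 23.4% at 400 to 500 bp (85 members). Within the members, which are cut off in both values by the rule, Spearman's rho between width and area per bp was 0.19 and Pearson's r was 0.15 (n = 213 peaks of 1 list, which share their libraries). The median area per bp was 5.50 in the shortest of these width classes and 7.13 in the longest. The lower edge of the cloud of points is set by the list, in which no peak has an area below 200.017, so that a short peak needs a higher area per bp to be listed at all.

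The most intense member was also the most intense peak of chromosomes 1 to 3. It lay at chr2:31126072-31126290 and was 219 bp wide, with an area of 6706, an area per bp of 30.6 and a summit -log10 q of 39.4. By total area it was number 1868 among the peaks of chromosomes 1 to 3, and by summit -log10 q number 143. Its summit was 9 bp from the middle of the peak. Its nearest neighbour, 1194 bp away, was a weak peak of 277 bp with an area per bp of 0.735. Within 50 kb there were 23 other peaks, so the most intense member stood in a stretch richer in peaks than that of the median member.

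The next member was at chr3:15183958-15184419, with 462 bp, an area per bp of 19.5 and a summit -log10 q of 33.5. Its area of 9025 was the largest of any member, and its surroundings were sparse, with 5 other peaks within 50 kb. A member at chr2:22610325-22610740 (416 bp) had 17.0 per bp, and one at chr2:26067313-26067796 (484 bp) had 15.9 per bp and the largest area of a member on chromosome 2, 7673. Both had weak nearest peaks, at 1.48 and 1.95 per bp. The fifth was at chr1:32924233-32924620 (388 bp) with 14.3 per bp. Its nearest peak, 9790 bp away, was itself intense at 12.3 per bp, and that of the member on chromosome 3 had 6.03 per bp. On chromosome 1 the largest area of a member was 6276, at chr1:5123806-5124262, where the nearest peak had 0.664 per bp. Among these 6 members, the area per bp of the nearest peak thus spanned 0.664 to 12.3.

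The limit of 5 per bp cut through a continuous range of values. Just above it were members at chr3:10234855-10235145 with 5.036 per bp, chr3:10736563-10736863 with 5.040 and chr1:32662001-32662433 with 5.043. Just below it were peaks at chr1:28280162-28280348 with 4.993 per bp, chr3:3833860-3834113 with 4.990 and chr1:12305343-12305504 with 4.981. The summit -log10 q of these 6 peaks overlapped, with 8.87 to 10.9 above the limit and 9.36 to 9.72 below it. Between 4 and 5 per bp lay 144 comparators, against 73 members between 5 and 6.

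The members were spread over the 3 chromosomes at nearly the same density. Chromosome 1 held 78 members, chromosome 2 held 72 and chromosome 3 held 63, or 2.12, 2.04 and 2.01 per Mb up to the last peak. Of the peaks of this width and spacing, 11.9% were members on chromosome 1 (exact Clopper-Pearson 95% confidence interval 9.51% to 14.6%), 11.8% on chromosome 2 (9.35% to 14.6%) and 13.2% on chromosome 3 (10.3% to 16.6%). These intervals, like all below, cover counting error only and treat peaks as independent, which neighbouring peaks of 1 list need not be. Cut into windows of 1 Mb, 15 of 105 windows held no member, and the richest window held 7, on chromosome 2. The median distance from one member to the next was 319 kb on chromosome 1, 321 kb on chromosome 2 and 276 kb on chromosome 3. The longest stretch between consecutive members was 2195 kb, on chromosome 3. Members of chromosome 2 had the highest median area per bp, at 7.09, against 6.63 on chromosome 1 and 6.15 on chromosome 3. The 95% intervals of these medians overlapped, and area per bp is a value that chose the members.

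Intense peaks were about as frequent at moderate spacing as among narrow peaks in general. Area per bp of 5 or more was found in 24.9% of all peaks of chromosomes 1 to 3, in 11.9% of the 5188 peaks of 500 bp or less, and in 12.2% of the 1742 narrow peaks at moderate spacing (213 members; 10.7% to 13.9%). Since the rule uses area, width and gap, nothing about the members follows from these shares. At gaps of 1000 bp or less the share was 10.9% (9.79% to 12.1%), and beyond 10000 bp it was 16.0% (13.0% to 19.5%). Within the range of the members, again in classes that leave out their lower bound, the share was 10.6% at gaps of 1000 to 2000 bp (67 members), 11.4% at 2000 to 5000 bp (82 members) and 16.6% at 5000 to 10000 bp (64 members). The interval of the last, 13.0% to 20.7%, overlapped that of 8.28% to 13.2% at the shortest gaps and 9.14% to 13.9% at the middle ones. By chromosome, the share at 5000 to 10000 bp was 17.0%, 12.7% and 20.4%, each above the 9.31%, 11.9% and 10.5% found at 1000 to 2000 bp on the same chromosome.

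**Figure D2:**
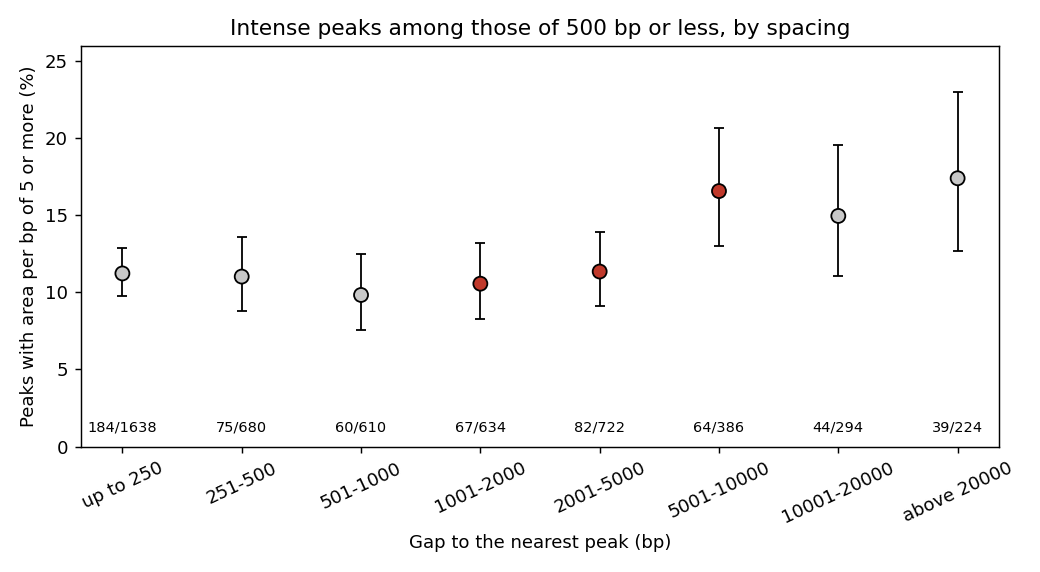
Percent of peaks of 500 bp or less on chromosomes 1 to 3 with an area per bp of 5 or more, by the gap to the nearest peak in bp; error bars are exact 95% confidence intervals and the counts stand at the foot of the plot. The 3 red points hold the members and run from 10.6% to 16.6%, and grey points are gaps outside the rule.

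The gap on the side of the nearest peak had a median of 2888 bp among members and 2623 bp among comparators. The gap on the other side was not used by the rule. Its median was 14079 bp among members (binomial 95% confidence interval of the median 10899 to 17230 bp) and 10805 bp among the 1526 comparators with a peak on either side (9919 to 11695 bp). It was longer than 10000 bp in 128 of 213 members, or 60.1% (53.2% to 66.7%), and in 797 of 1529 comparators, or 52.1% (49.6% to 54.7%). These intervals overlapped. The direction was not the same everywhere, since the median on chromosome 3 was 10899 bp among members and 11949 bp among comparators, against 14537 and 9885 bp on chromosome 1 and 16813 and 11006 bp on chromosome 2. Among peaks with a nearest gap of 1000 to 2000 bp, the other gap had a median of 9058 bp in members and 5573 bp in comparators, and at 2000 to 5000 bp the order was the opposite, with 9899 and 11514 bp. At 5000 to 10000 bp the medians were 19055 bp in members and 18730 bp in comparators.

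Few members stood next to another member, and members were few, at 1.94% of the peaks of chromosomes 1 to 3. The nearest peak was itself a member for 17 of 213 members, or 7.98% (4.72% to 12.5%), and for 62 of 1529 comparators, or 4.05% (3.12% to 5.17%). These intervals overlapped slightly. Another member lay within 10 kb of 34 members and within 50 kb of 73. The same count was not made around comparators, so nothing is read from these numbers. Members formed 7 pairs in which each was the nearest peak of the other, with gaps of 1377 to 6698 bp. The closest pair was on chromosome 2, at chr2:4664347-4664844 with 5.84 per bp and chr2:4666222-4666599 with 5.47 per bp, 1377 bp apart. The next pair was at chr1:18310610-18310854 with 7.98 per bp and chr1:18312327-18312617 with 10.2 per bp. This pair was 1472 bp apart and far from other peaks, by 36991 bp on the left and 45222 bp on the right. The third pair was at chr3:698663-698998 with 5.78 per bp and chr3:700810-701088 with 8.06 per bp, 1811 bp apart, and the stretch to the right of it held no peak for 146349 bp. None of these 6 members was among the 5 most intense.

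The summit of a member lay close to the middle of the peak. The summit position is a column that the rule does not use, and its distance from the middle is given here as a percent of the distance from the middle to an edge, so that 0% is the exact middle and 100% an edge. The median was 19.8% in members (binomial 95% confidence interval of the median 16.7% to 23.4%), 27.1% in comparators (25.6% to 29.0%) and 32.2% in all peaks of chromosomes 1 to 3. Wider peaks are part of the last value, and in the 5188 peaks of 500 bp or less the median was 27.1%. The highest value of a member was 65.7%, and that of a comparator was 89.8%. The summit was within 50% of the way to an edge in 205 of 213 members, or 96.2% (92.7% to 98.4%), and in 1254 of 1529 comparators, or 82.0% (80.0% to 83.9%). The difference had the same direction on each chromosome, with medians of 17.7% and 29.1% on chromosome 1, 21.4% and 26.4% on chromosome 2 and 21.1% and 26.3% on chromosome 3, members first. The intervals of these medians overlapped on chromosomes 2 and 3 and not on chromosome 1. In bp, the median distance was 35 bp in members and 34.5 bp in comparators, which were shorter.

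The difference between members and comparators in summit position was largest in the wider peaks. At widths of 400 to 500 bp the median was 18.9% in 85 members and 37.4% in 278 comparators, which corresponded to 40.5 and 80.8 bp. At 300 to 400 bp it was 22.4% in 68 members and 40.8% in 386 comparators. At 200 to 300 bp the medians were 23.6% and 27.9%, and at 100 to 200 bp they were 2.71% in 12 members and 11.6% in 367 comparators. For all widths up to 300 bp the medians were 21.9% in 60 members and 22.4% in 865 comparators, which is less than 1 percentage point apart, with 12 of these members and 367 of these comparators in the class of 100 to 200 bp. The summit -log10 q also differed between the groups, with a median of 13.8 in members and 5.23 in comparators, and its part in the summit position was not tested. Among comparators, Spearman's rho between area per bp and distance from the middle was -0.22 and Pearson's r was -0.21 (n = 1529 peaks of 1 list). Among members rho was -0.10 and r was -0.12 (n = 213). No test was made of these differences, since peaks of 1 list are not replicates.

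**Figure D3:**
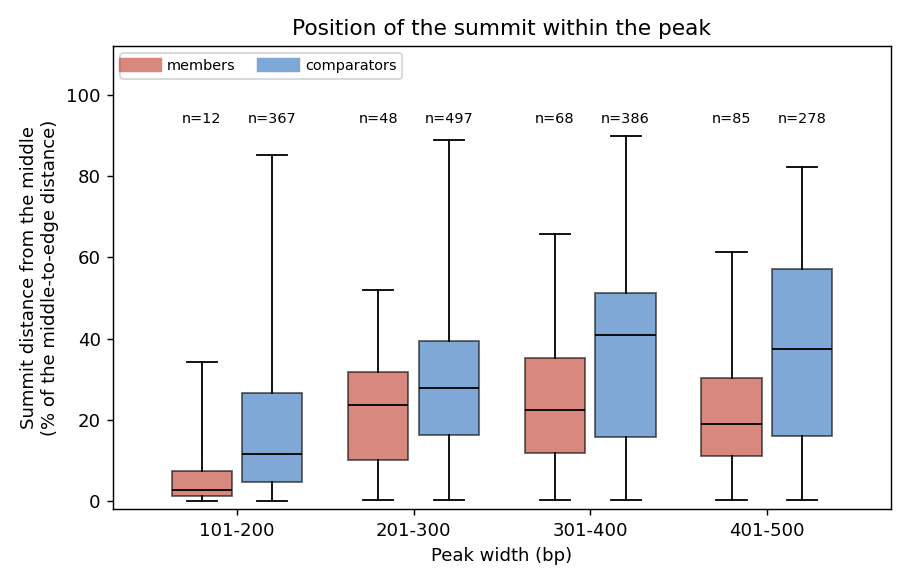
Distance of the summit from the middle of the peak, as a percent of the distance from the middle to an edge, by width in bp, for members (red) and comparators (blue). Boxes show the quartiles and the median, whiskers the lowest and highest peak; at 400 to 500 bp the medians were 18.9% in members and 37.4% in comparators.

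The median summit distance was lower in the classes of members from 8 per bp on than in the class of 5 to 6 per bp. The median distance was 24.1% in the 73 members with 5 to 6 per bp and 19.8% in the 73 members with 6 to 8 per bp. It was 15.9% in the 35 members with 8 to 10 per bp and 16.8% in the 32 members with 10 or more. Over all 213 members, Spearman's rho between area per bp and this distance was only -0.10. No interval was computed for the classes. These classes differed in width as well, with medians of 325, 355, 416 and 408.5 bp in the same order, and the part of width was not tested. Summits lay on either side of the middle. They were left of it in 95 of 213 members, or 44.6% (37.8% to 51.5%), and in 762 of 1529 comparators, or 49.8% (47.3% to 52.4%), and the intervals overlapped.

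The nearest peak of a member had a higher median area per bp than that of a comparator, though not at every width and not in total area. The values of the neighbour were not used to choose the member. Its area per bp had a median of 3.42 for members (binomial 95% confidence interval of the median 2.84 to 3.88) and 2.85 for comparators (2.68 to 2.99), and these intervals overlapped. The lowest value for a member was 0.452 and the highest was 21.7. The nearest peak had 5 or more per bp for 69 of 213 members, or 32.4% (26.2% to 39.1%), and for 379 of 1529 comparators, or 24.8% (22.6% to 27.0%), beside 24.9% of all peaks of chromosomes 1 to 3. These intervals overlapped slightly. The median area of the nearest peak was 1221 for members (933 to 1913) and 1230 for comparators (1142 to 1397). The share for members was 32.1% on chromosome 1, 31.9% on chromosome 2 and 33.3% on chromosome 3, against 23.7%, 25.7% and 25.2% for comparators. The median width of the nearest peak was 441 bp for members and 478 bp for comparators. It lay to the left of 121 members, or 56.8% (49.9% to 63.6%), and of 763 comparators, or 49.9% (47.4% to 52.4%).

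For peaks of 300 bp or less the order was the opposite. The nearest peak had a median of 2.45 per bp for 60 such members and 2.99 per bp for 865 such comparators. For members of 300 to 400 bp and 400 to 500 bp it was 3.64 and 3.56 per bp, against 2.67 and 2.59 for comparators. The difference was also uneven over the gap, with 3.62 for members and 2.63 for comparators at gaps of 1000 to 2000 bp, 3.17 and 3.12 at 2000 to 5000 bp, and 3.16 and 2.71 at 5000 to 10000 bp. It also varied with the width of the neighbour, in a split chosen after seeing the data. Where the nearest peak was wider than 500 bp, its median was 5.42 per bp for 91 members and 3.95 for 726 comparators. Where it was 500 bp or less, the medians were 2.19 for 122 members and 2.15 for 803 comparators, which differed by 0.04. Within the members, area per bp and that of the nearest peak were nearly unrelated, with a Spearman's rho of 0.15 and a Pearson's r of 0.08 (n = 213 peaks of 1 list).

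**Figure D4:**
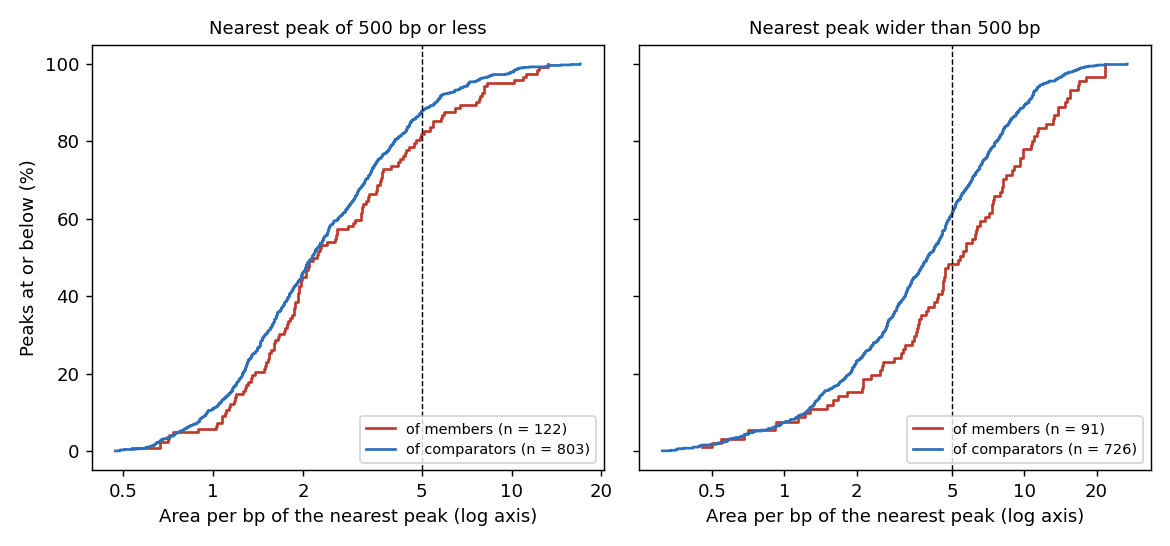
Cumulative percent of peaks whose nearest peak has at most the area per bp shown on the log axis, for members (red) and comparators (blue), with nearest peaks of 500 bp or less on the left and wider ones on the right. The dashed line marks 5 per bp; the curves lie close together on the left (medians 2.19 and 2.15) and apart on the right (5.42 and 3.95).

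The surroundings of members held less accessible DNA than those of comparators. Within 50 kb of the summit there were 1 to 39 other peaks around a member, with a median of 12 (binomial 95% confidence interval of the median 11 to 13), and 1 to 42 around a comparator, with a median of 14 (13 to 14). These other peaks covered a median of 8664 bp around members (7116 to 10037 bp) and 10864 bp around comparators (10424 to 11361 bp), and the intervals did not overlap. The comparators were themselves below the peaks of chromosomes 1 to 3 in general, which had medians of 15 other peaks and 13146 bp. Peaks of 500 bp or less at any spacing had medians of 14 other peaks and 11506 bp. The covered length was lower for members on each chromosome, with 8611 and 11188 bp on chromosome 1, 8729 and 10957 bp on chromosome 2 and 8865 and 10608 bp on chromosome 3, members first. Taken by chromosome, the intervals overlapped on chromosomes 2 and 3 and not on chromosome 1. For the number of peaks, the intervals over chromosomes 1 to 3 met at 13. This number differed least on chromosome 2, with medians of 12.5 and 13. With widths up to 300 bp its median was 12 for members and 13 for comparators. The covered length was not split by width.

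The difference was largest at 5 to 10 kb from the summit. From 2 to 5 kb, 11.4% of bases around members lay inside a peak, against 14.9% around comparators, and from 5 to 10 kb it was 11.6% against 16.2%. From 10 to 20 kb it was 10.7% against 14.1%, and from 20 to 50 kb 10.5% against 11.9%. In each of these ranges the value of members was lower on all 3 chromosomes. The nearest gap, which the rule bounds, was somewhat longer in members. Among peaks with gaps of 1000 to 2000 bp the covered length within 50 kb had a median of 9977 bp in members and 12740 bp in comparators. It was 8836 and 10806 bp at gaps of 2000 to 5000 bp, and 7629 and 8383 bp at 5000 to 10000 bp, so that the order was kept in each class of gap. The 32 members with 10 or more per bp had a median of 9.5 other peaks within 50 kb. Over all 213 members, area per bp and this number were nearly unrelated, with a Spearman's rho of -0.12 and a Pearson's r of -0.03.

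**Figure D5:**
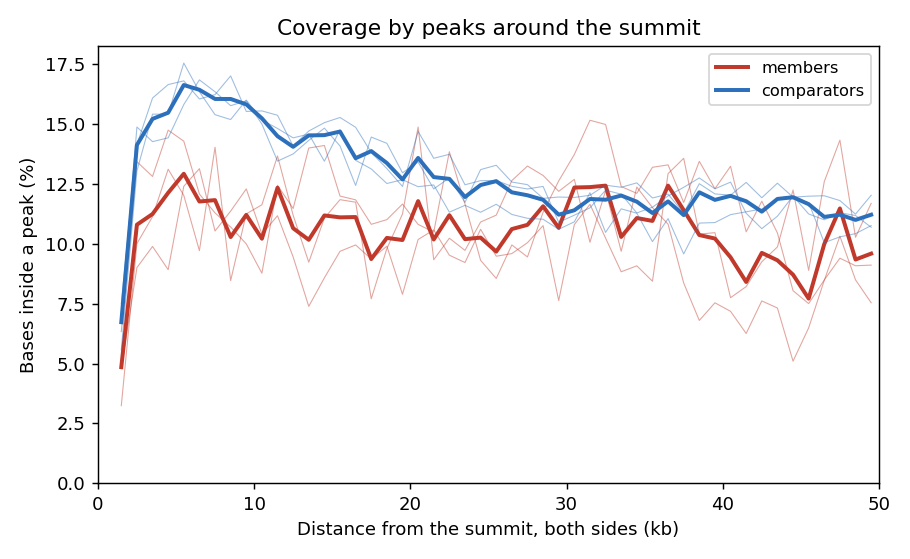
Percent of bases inside a peak by distance from the summit in kb (1 kb bins, both sides joined, from 1 kb on), for members (red) and comparators (blue). Thick lines are chromosomes 1 to 3 together and thin lines single chromosomes; from 5 to 10 kb the values were 11.6% around members and 16.2% around comparators.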

How the data were processed

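The ATAC-seq libraries were sequenced from both fragment ends, and the experiment is represented by 1 headerless peak table. Processing notes of the submitters name CASAVA, Bowtie2 2.3.4.3, SAMtools, Picard and Genrich 0.6. The build, filters, read shift, caller options and input libraries are not stated there, and depth is unknown. How the caller joins nearby signal sets widths and gaps, and so decides which peaks meet the rule. The signal column deposited by the authors is called the area. The score deposited by the authors equalled 1000 times area per bp, held at 1000, in 12035 peaks (within 1), and was not used since it was 1000 in all 213 members. The -log10 q deposited by the authors and the summit position in bp belong to each peak. The -log10 p was not used.

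Gaps are the bases between neighbouring peaks, and coordinates are 1-based. Python 3.11.15, numpy 2.4.6, pandas 2.3.3, scipy 1.17.1 and matplotlib 3.10.9 were used, and the functions were tested on simulated data. Shares have exact Clopper-Pearson and medians binomial 95% intervals. No test was made, as the list has no replicates. Members, limits and comparisons were chosen with earlier results of these data known. Peaks named are the 5 members of largest area per bp, the largest area per chromosome, the highest -log10 q, 3 peaks on either side of 5 per bp and the 3 closest pairs. Alternatives changed the limits of area per bp, width, gap and -log10 q, the chromosomes and the range of the surroundings. Base composition, gene starts and motifs were planned and not run. No genome sequence was used, and the positions in a RefSeq gene table at hand were left aside because the list names no build. Whether they match the list was not checked.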

Additional observations from a re-analysis of the deposited data

How the results depend on the processing

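Of 52 values recomputed under an alternative, 31 stayed within a tolerance around the main value, 18 moved outside it and 3 changed sign. The tolerance was 1.5 times for the number of members and the 95% interval for their share. A difference between members and comparators could move from its main value as far as the 95% interval reaches from the median of the members on that side. The number of members was 357 from 4 per bp, 32 from 10 per bp, 60 with widths up to 300 bp and 356 up to 750 bp, and 78, 72 and 63 on chromosomes 1, 2 and 3 alone. From 10 per bp, here and below, the comparators stayed those below 5 per bp, so peaks of 5 to 10 per bp were in neither group. The share of members among members and comparators was 20.5%, 2.05%, 6.49% and 15.6% under the first 4 of these settings. These shifts follow from the limits themselves. The summit distance, as members minus comparators in percentage points, was -7.34 and moved to -0.45 with widths up to 300 bp, -11.5 on chromosome 1 alone, and -18.4 in each of the classes of 300 to 400 bp and 400 to 500 bp. The area per bp of the nearest peak, 0.56 higher for members, reversed to -0.53 with widths up to 300 bp, to -0.61 at 100 to 200 bp and to -0.53 at 200 to 300 bp. It fell to 0.13 without gaps of 2000 bp or less and to 0.26 on chromosome 3 alone. In a split chosen after seeing the data, it was 0.04 where the nearest peak was 500 bp or less and 1.47 where it was wider. The number of other peaks within 50 kb, 2 lower for members, moved to -4.5 from 10 per bp and to -0.5 on chromosome 2 alone. For the remaining shifts, the cause was not tested. A -log10 q of 3 or more gave 216 members. The alternatives for base composition, gene starts and motifs were not run. No paired analysis was possible because peaks are not assigned to replicate cultures, so no replicate could be left out either.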

Other observations

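Peaks that meet the same limits were also found outside chromosomes 1 to 3. On chromosome 4, 47 of 230 peaks of 500 bp or less at gaps of 1000 to 10000 bp had an area per bp of 5 or more, or 20.4% (exact Clopper-Pearson 95% confidence interval 15.4% to 26.2%, counting error only), against 12.2% (10.7% to 13.9%) on chromosomes 1 to 3. Of all 968 peaks of chromosome 4, 36.1% had 5 or more per bp, so the share was above that of the other chromosomes among peaks in general as well. The 47 peaks ran from 5.22 to 17.0 per bp with a median of 6.99, close to the 6.74 of the members, and had the same median width of 365 bp. Their summit was at a median of 19.4% of the way from the middle to an edge, and their nearest peak had a median of 5.71 per bp. On the unplaced scaffolds, 3 of 8 such peaks had 5 or more per bp, the highest at 22.8. These differences were not tested.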
